A study of Homo sapiens with 8 samples.

Results

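HepG2 cells come from a human liver cancer and keep many functions of hepatocytes, and those used here also overexpressed CYP2C19, a cytochrome P450 enzyme that oxidises many drugs. They were grown under blasticidin, which selects for the transgene, and seeded 24 h before treatment. Cells received compound 4, 5 or 6, each at its own IC50, and control cells received the solvent DMSO. The incubation had the same length in all groups. Each of the 4 groups had 2 RNA-seq libraries, which the labels call day 1 and day 2. The response common to the compounds was taken as the 6 libraries of compounds 4, 5 and 6, chosen by their treatment labels and pooled as 1 treated group, against the 2 DMSO libraries, so that all 8 libraries of the study entered the comparison. The compounds were given at unequal concentrations, so their values are set side by side without a test between them. No source states that the replicates came from separate cultures, so the p-values measure only the spread between these libraries, which may be technical. All groups are the same transgenic line, and no parental line was compared.

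The compounds are antioxidants added to plastics, bisphenols in which a pair of phenol rings with bulky alkyl groups is joined through a single carbon. Compounds 4 and 6 share a methylene bridge and a methyl group on each ring, and the tert-butyl group of each ring in compound 4 is a cyclohexyl group in compound 6. In compound 5 each ring carries a pair of tert-butyl groups, and the bridge carries a methyl group. Hepatocytes make much of the body's cholesterol and export it in lipoproteins. When sterols in the endoplasmic reticulum are low, the transcription factor SREBP2 raises the enzymes of cholesterol synthesis. Other stress pathways can act in parallel. ATF4 raises amino acid transport and synthesis genes, NRF2 raises glutathione and detoxification genes, and signals through the kinase ERK raise growth factor ligands and the phosphatases that shut ERK off.

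The total count per library was between 9791659 and 17814595, and 13400 of 60230 genes passed the filter on low counts. Expression is given in CPM, the count relative to the library size after TMM normalization. All 10 markers of the hepatocyte-derived line were tested, whereas 4 of 12 markers of fibroblasts, leukocytes, endothelium and squamous epithelium passed the filter, and PTPRC, COL1A2 and KRT5 were listed at 0 in every library. INSIG1 and ME1, genes of lipid metabolism, were also listed at 0 throughout, so a listed 0 need not mean that a gene was silent. Of these 4, PDGFRB was highest, at 7.63 to 25.3 CPM in treated cells against 9.12 and 5.02 CPM in DMSO (adjusted p = 0.11), and VWF was lowest, with 0.0981 to 1.23 CPM in treated cells against 1.02 and 1.01 CPM (adjusted p = 0.32). None of the 4 passed the threshold with edgeR, 1 did at an unadjusted p under 0.05, and 1 did with DESeq2. CYP2C19 itself was measured at 27.7 and 16.4 CPM in DMSO and at 21.2 to 52.8 CPM in treated cells (log2-fold change 0.69, SE 0.32, adjusted p = 0.21), and the transgene and the endogenous copy cannot be told apart in these counts.

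Relative to DMSO, the pooled compounds raised 514 genes, 3.84% of those tested, and lowered 294, or 2.19%, at an adjusted p under 0.05 in edgeR's quasi-likelihood test. These are the genes termed called below. Among all 13400 genes tested, 3229 had an unadjusted p under 0.05 with edgeR, and DESeq2 called 1434. List counts at an unadjusted p or by DESeq2 are to be read against these numbers. Lists with 0 called are to be read against 3.84% and 2.19%. In such bulk RNA, fewer cells of a kind and less RNA per cell cannot be told apart. The calls rest on both DMSO libraries. Without DMSO replicate 1 the fit called 1 gene, and without DMSO replicate 2 it called 0, although 2266 and 1487 genes then had an unadjusted p under 0.05. All 808 called genes kept their direction in both of these fits and within each replicate number. This was nearly fixed in advance and adds no support. The genes were called on these same libraries, and 512 rises and 293 falls had all 6 treated libraries beyond both DMSO libraries. The compounds weighed unequally, since 261 genes were called without compound 4, 1497 without compound 5 and 774 without compound 6. In all 3 of these fits and the full one, 239 genes were called, 174 of them higher and 65 lower. Without single treated libraries the count was lowest without compound 4 replicate 2, at 413, and compound 6 replicate 2, at 423, and highest without compound 5 replicate 2, at 1315. The fit without the 2 merged libraries, DMSO replicate 1 and compound 4 replicate 1, called 2 genes.

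The fit counts differences between compounds as spread, so a gene on which the compounds disagreed was less likely to be called, and the next counts only describe the genes so chosen. Of the called genes, 512 rises and 293 falls had all 6 treated libraries beyond both DMSO libraries, and 0 had a compound mean on the other side of the DMSO mean. Among all genes tested, all 6 treated libraries lay above both DMSO libraries for 1926, or 14.4%, and below both for 1571, or 11.7%. The 3 compound means lay on 1 side of DMSO for 63.0% of the genes tested. Rises were larger than falls, with 189 rises past 1 on the log2 scale and 48 past 2, against 65 and 4 falls. The median called rise, as a difference in log2 CPM, was 0.91, 0.83 and 0.74 under compounds 4, 5 and 6, and the median called fall was −0.88, −0.73 and −0.63. Every compound was past 0.5 for 364 rises and 200 falls, and past 1 for 122 and 29. The smallest of the 3 compound differences belonged to compound 6 for 275 of the rises and 177 of the falls, to compound 5 for 158 and 94, and to compound 4 for 81 and 23. The 2 replicates of a compound also differed. The median rise was 1.02 in compound 4 replicate 2 and 0.77 in its replicate 1, 1.01 and 0.68 in compound 5 replicates 1 and 2, and 0.87 and 0.59 in compound 6 replicates 2 and 1.

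The 12 largest rises common to every compound included the ERK phosphatase DUSP5, the secreted cytokine GDF15, the long non-coding RNA UCA1 and a pair of ligands of the epidermal growth factor receptor (EGFR). Genes were ranked by their weakest compound, that is by the smallest of the 3 differences from DMSO in log2 CPM. DUSP5, a phosphatase that inactivates nuclear ERK (GRCh38 chr10:110497838-110511544), was at 0.51 and 0.42 CPM in DMSO, from 5 counts in each library. In treated cells it ranged from 6.48 through a median of 23.5 to 44.8 CPM. Every treated library lay far above both DMSO libraries, and the 2 libraries of a compound differed more than the compound means did. The log2-fold change was 5.66 (SE 1.07, adjusted p = 0.017), and compounds 4, 5 and 6 differed from DMSO by 4.72, 5.36 and 4.62 in log2 CPM. AREG and EREG, neighbouring genes on chromosome 4 that encode the EGFR ligands amphiregulin and epiregulin, rose together. AREG was at 2.15 and 1.34 CPM in DMSO and ranged from 5.07 through a median of 14.2 to 22.3 CPM in treated cells (log2-fold change 3.01, SE 0.64, adjusted p = 0.023). EREG went from 16.8 and 12.3 CPM to 41.7 through 66.6 to 103.2 CPM (log2-fold change 2.29, SE 0.39, adjusted p = 0.013).

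C5AR1, the receptor of the complement fragment C5a, was at 0.51 and 0.75 CPM in DMSO, from 5 and 9 counts, and at 4.51, 11.6 and 22.5 CPM as the lowest, median and highest treated value (log2-fold change 4.30, SE 0.86). UCA1, a long non-coding RNA first described in bladder cancer, was at 2.46 and 1.42 CPM in DMSO and at 12.01, 31.6 and 65.8 CPM in treated cells (log2-fold change 4.09, SE 0.79). AQP3, a water and glycerol channel, was at 6.35 and 4.44 CPM in DMSO and at 16.2 to 97.4 CPM in treated cells, and both were highest in compound 4 replicate 2. GDF15, a secreted stress cytokine, was at 384.0 and 254.6 CPM in DMSO and 871.3 to 3005 CPM in treated cells (log2-fold change 2.49, SE 0.39, adjusted p = 0.011). RASD1, a Ras-related GTPase, rose by 2.74 (SE 0.45), TNS4, a tensin of focal adhesions, by 2.94 (SE 0.47), and TM4SF19, a tetraspan membrane protein, by 2.20 (SE 0.39) on the log2 scale. EMP1 and MYEOV, like DUSP5, C5AR1 and TNS4, rest on few counts in DMSO, where TNS4 had 11 and 6. EMP1, an epithelial membrane protein, had 3 and 1 counts there, and its summed count relative to library size was 27.6 times higher in treated cells (95% interval 10.7 to 102.0, counting error only). MYEOV had 9 and 1 counts, and the same ratio was 11.9 (6.4 to 25). Its fitted log2-fold change was 5.91 without DMSO replicate 1 and 2.61 without DMSO replicate 2. MYEOV was the 1 gene of these 12 that lost its call when a compound was left out.

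**Figure D1:**
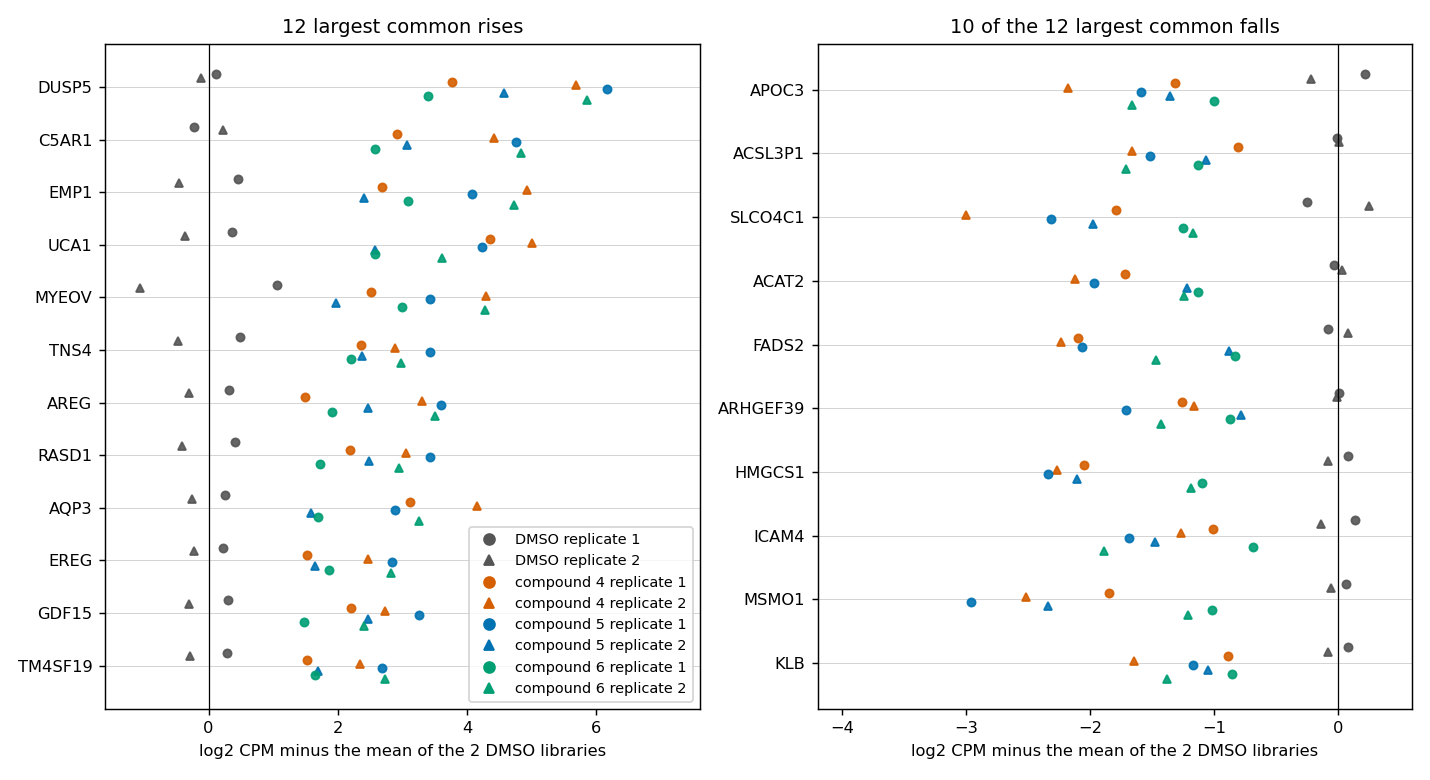
Each library's log2 CPM minus the DMSO mean (x axis) for the 12 largest common rises and 10 of the 12 largest common falls, with colour for the group and circle or triangle for replicate 1 or 2. All 6 treated libraries lie beyond both DMSO libraries for each gene shown, as the rule that chose them requires, and compound 6 lies nearest to DMSO for HMGCS1 and MSMO1.

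Promoters of the common rises were read because these genes moved together. The RefSeq table (GRCh38.p14, 250 bases before to 50 after the gene start) held 8 of the 12 rises. Both strands were searched for TGANTCA, a loose form of the AP-1 element, and TGACNNNGC, the core of the antioxidant response element. Also searched were TCACNCCAC, a form of the sterol regulatory element, and TGATGNAAT, a form of the CEBP-ATF element. N stands for any base, so a match to TGANTCA need not be an AP-1 site. A run of letters can match TGANTCA and TGACNNNGC at once. EMP1 and TM4SF19 held TGANTCA, shown in capitals, and the other 6 held none of the motifs. EMP1 lies on the plus strand at chr12:13196476-13196775 and TM4SF19 on the minus strand at chr3:196338339-196338638.
EMP1: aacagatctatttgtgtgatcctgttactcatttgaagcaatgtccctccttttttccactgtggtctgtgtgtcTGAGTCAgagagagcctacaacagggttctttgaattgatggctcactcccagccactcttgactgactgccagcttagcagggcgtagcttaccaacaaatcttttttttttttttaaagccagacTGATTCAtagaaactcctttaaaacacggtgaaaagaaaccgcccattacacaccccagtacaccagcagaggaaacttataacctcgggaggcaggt
TM4SF19: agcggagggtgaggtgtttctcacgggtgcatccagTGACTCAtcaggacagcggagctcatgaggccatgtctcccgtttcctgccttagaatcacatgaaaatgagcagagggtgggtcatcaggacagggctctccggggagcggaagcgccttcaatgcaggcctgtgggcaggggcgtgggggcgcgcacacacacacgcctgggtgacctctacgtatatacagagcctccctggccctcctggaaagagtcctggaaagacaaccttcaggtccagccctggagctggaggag
Among 390 promoters of called rises, 8.46% held TGANTCA, against 2.55% of 235 promoters of called falls, 4.32% of 10039 promoters of genes tested and 7.71% of all 35116. TGACNNNGC was held by 20.3%, 17.4%, 15.4% and 13.3% of the same sets. TCACNCCAC was held by 1.79%, 0.851%, 1.11% and 1.13%, and by 0 of 16 promoters of sterol synthesis enzymes. For TGATGNAAT the shares were 0.769%, 0%, 0.428% and 0.991%.

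Genes of lipid supply led the falls common to every compound. HMGCS1, which makes HMG-CoA in the mevalonate arm (chr5:43289395-43313512), went from 247.1 and 222.2 CPM to 46.0 through 55.3 to 109.6 CPM (log2-fold change −1.76, SE 0.28, adjusted p = 0.011), with the highest treated values under compound 6. ACAT2, which makes acetoacetyl-CoA for the pathway, changed by −1.52 (SE 0.22), MSMO1, a sterol oxidase, by −1.83 (SE 0.37), and FADS2, a fatty acid desaturase, by −1.51 (SE 0.34). FADS2 and MSMO1 lost their call when 1 of the compounds was left out. Some of these genes overlap others, ACAT2 with TCP1 and FADS2 with FADS1 and FEN1, and since no source gives the strand setting of the counting, reads of such pairs may be shared.

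APOC3, an apolipoprotein that slows the clearance of triglycerides, was at 60.2 and 44.2 CPM in DMSO and ranged from 11.3 through 18.5 to 25.7 CPM in treated cells (log2-fold change −1.50, SE 0.22, adjusted p = 0.011). KLB, the FGF co-receptor β-klotho, was at 86.3 and 77.1 CPM in DMSO and at 25.9 to 44.9 CPM in treated cells, and its 3 compound differences were close to each other at −1.27, −1.11 and −1.12. SLCO4C1, an organic anion transporter, changed by −1.92 (SE 0.38), ICAM4, an adhesion molecule of red blood cells, by −1.32 (SE 0.26), and ARHGEF39, a guanine nucleotide exchange factor, by −1.18 (SE 0.22), the last of which lost its call when 1 of the compounds was left out. The transcript ACSL3P1, which changed by −1.29 (SE 0.21), is a processed pseudogene inside TF on the same strand, so its counts are uncertain. The promoter table held 6 of the 12 falls, of which SLCO4C1 (minus strand, chr5:102296235-102296534) and KLB (plus strand, chr4:39406680-39406979) held TGACNNNGC or its reverse complement, in capitals, and the other 4 held none of the motifs.
SLCO4C1: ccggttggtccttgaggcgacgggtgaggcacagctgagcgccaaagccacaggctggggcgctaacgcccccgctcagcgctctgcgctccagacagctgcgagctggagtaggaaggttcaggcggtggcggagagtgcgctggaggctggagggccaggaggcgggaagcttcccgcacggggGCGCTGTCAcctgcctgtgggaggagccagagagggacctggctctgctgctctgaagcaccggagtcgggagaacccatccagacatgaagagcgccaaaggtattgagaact
KLB: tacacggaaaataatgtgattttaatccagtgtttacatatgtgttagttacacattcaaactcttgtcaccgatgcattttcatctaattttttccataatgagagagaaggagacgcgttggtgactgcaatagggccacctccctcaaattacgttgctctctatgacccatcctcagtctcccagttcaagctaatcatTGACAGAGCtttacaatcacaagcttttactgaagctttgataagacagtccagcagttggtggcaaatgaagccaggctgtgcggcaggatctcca

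The ranking has no gap at its ends. The 12th common rise, TM4SF19, had a weakest-compound difference of 1.93, and the next genes, S100A3, L1CAM and LUCAT1, had 1.82, 1.82 and 1.80. The 12th common fall, KLB, had −1.11, and APOA5, MAB21L4 and TUBB1 followed with −1.11, −1.09 and −1.08.

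Cholesterol synthesis was lowered along nearly its whole length. Of 21 enzymes tested, 19 fell, which is 7 of 9 in the mevalonate arm, where 2.19% of all genes fell, and 12 of 12 from squalene to cholesterol. The median log2-fold change was −1.31 and −1.33, against 0.02 over all genes tested, with 0 enzymes higher. In the mevalonate arm IDI1, which isomerises the 5-carbon building block, was at 91.0 and 96.9 CPM in DMSO and at 18.9 to 53.4 CPM in treated cells (log2-fold change −1.53, SE 0.30). MVD, FDPS and MVK changed by −1.31, −1.09 and −0.99. The 2 exceptions were PMVK, at 6.87 and 8.04 CPM in DMSO and 4.12 to 7.98 CPM in treated cells, and GGPS1, which serves protein prenylation rather than sterols, at 19.2 and 15.9 CPM and 13.7 to 21.5 CPM (log2-fold change 0.05, SE 0.17, adjusted p = 0.89). Downstream, FDFT1, which makes squalene, was at 338.4 and 326.0 CPM in DMSO and ranged from 68.1 to 172.3 CPM in treated cells, and SQLE and LSS, which oxidise and cyclise squalene, changed by −1.38 and −1.35. The median difference of the 12 later enzymes for compounds 4, 5 and 6 was −1.53, −1.55 and −0.94, and by library it ran from −0.82 in compound 6 replicate 1 to −1.80 in compound 5 replicate 1.

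The genes of sterol sensing and lipoprotein uptake did not move as 1 group. Of 14 tested, 2 fell and 1 rose, where 2.19% and 3.84% of all genes did, and the median was −0.02. TMEM97, a sterol-binding membrane protein, fell from 201.8 and 184.7 CPM to between 82.1 and 123.3 CPM (log2-fold change −0.89, SE 0.13, adjusted p = 0.011). SREBF2, which encodes SREBP2, had a log2-fold change of −0.47 (SE 0.13, adjusted p = 0.059). INSIG1 was listed at 0 in every library and was not tested.

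Of 12 tested genes of fatty acid synthesis, 7 fell, against 2.19% of all genes, and 0 rose, with a median of −0.80. PNPLA3, a lipid droplet lipase, went from 29 and 31.7 CPM to between 4.94 and 17.9 CPM (log2-fold change −1.51, SE 0.36, adjusted p = 0.032). SCD and FASN, the stearoyl-CoA desaturase and the fatty acid synthase, changed by −1.12 (SE 0.24) and −0.84 (SE 0.21), and the highest member was LPIN1 at −0.09 (adjusted p = 0.75). Compounds 4, 5 and 6 had medians of −1.08, −0.91 and −0.44. Targets of the sterol receptor LXR had 0 of 9 called by edgeR, 2 at an unadjusted p under 0.05 and 0 by DESeq2, and their ends were SMPDL3A at 0.67 (adjusted p = 0.14) and the cholesterol exporter ABCA1 at −0.54 (adjusted p = 0.20).

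The amino acid stress response rose in part. Of 30 genes tested, 13 rose, against 3.84% of all genes, 0 fell and the median was 0.66, with all 30 fitted values above 0. ASNS, asparagine synthetase, was at 59.1 and 53.3 CPM in DMSO and ranged from 111.3 to 209.3 CPM in treated cells (log2-fold change 1.56, SE 0.22, adjusted p = 0.011). The cystine transporter SLC7A11 changed by 1.52 (SE 0.28), its partner subunit SLC3A2 by 1.46 (SE 0.38), and PPP1R15A, which reverses the phosphorylation of eIF2α, by 1.79 (SE 0.45). The highest member was GDF15, described above, and the lowest was PSPH, of serine synthesis, at 0.01 (adjusted p = 0.96). Among transcription factors of the list, CEBPB was called at 0.79 (adjusted p = 0.048), whereas ATF4 had 0.49 (adjusted p = 0.051) and DDIT3 had 1.48 (adjusted p = 0.071). For DDIT3 the 6 treated values, from 19.4 to 70.1 CPM, all lay above 13.9 and 11.1 CPM in DMSO. The list had a median of 0.55, 0.74 and 0.64 under compounds 4, 5 and 6. Chaperones and related genes of the endoplasmic reticulum, which mark protein misfolding there, did not rise with it in the pooled fit. Of 20 tested, 0 rose and 1 fell, where 3.84% and 2.19% of all genes did, with a median of −0.08. That was CALR, calreticulin, at 1547 and 1730 CPM in DMSO and 980.7 to 1412 CPM in treated cells (log2-fold change −0.47, SE 0.13, adjusted p = 0.048, or 0.057 with the replicate number as a block). The ends of the list were DNAJB9 at 1.02 (adjusted p = 0.089) and CRELD2 at −0.51 (adjusted p = 0.19), and HSPA5 had 0.05. The compounds differed here, with list medians of −0.18, 0.13 and −0.22 under compounds 4, 5 and 6. DNAJB9 differed from DMSO by 0.79, 1.56 and 0.41 in log2 CPM. In the pooled fit 7 members had an unadjusted p under 0.05 with edgeR, as did 3229 of all 13400 genes tested.

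Of 29 tested NRF2 targets, 11 rose, against 3.84% of all genes, and 0 fell, with a median of 0.34. SLC7A11 is among the 11 and was also counted among the rises of the amino acid stress response. SQSTM1, which encodes the autophagy receptor p62, was highest. It was at 398.8 and 351.0 CPM in DMSO and ranged from 756.5 through 1271 to 1656 CPM in treated cells (log2-fold change 1.78, SE 0.26, adjusted p = 0.011). Both subunits of the enzyme that starts glutathione synthesis rose, GCLM by 1.10 (SE 0.17) and GCLC by 1.01 (SE 0.19), as did SRXN1, sulfiredoxin, by 1.11 and TXNRD1, a thioredoxin reductase, by 0.99. AKR1C1, an aldo-keto reductase, was 1 of the 2 called genes with the highest CPM in treated cells, at 2830 and 2315 CPM in DMSO and 3488 to 5045 CPM in treated cells (log2-fold change 0.73, SE 0.16, adjusted p = 0.027), but its reads can be shared with near-identical copies. Other well-known targets were not called. HMOX1, heme oxygenase, was at 107.3 and 95.2 CPM in DMSO and 108.4 to 181.0 CPM in treated cells (adjusted p = 0.30) and NQO1 had 0.08 (adjusted p = 0.71). Of 26 genes of autophagy and lysosome 5 rose, against 3.84% of all genes, and 0 fell, with a median of 0.24. Beside SQSTM1 these were GABARAPL1 (1.13, SE 0.21), WIPI1 (0.93, SE 0.22), ATG2A (0.68, SE 0.18, adjusted p = 0.042, or 0.053 with the replicate number as a block) and the protease CTSL (0.83, SE 0.21).

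Of 22 tested genes that respond to ERK, 10 rose, against 3.84% of all genes, and 0 fell, with a median of 0.69. Beside DUSP5, AREG and EREG these included the phosphatases DUSP4 (2.12, SE 0.39) and DUSP6 (0.68, SE 0.10), the inhibitor SPRY4 (1.19, SE 0.14), the transcription factors EGR1 (2.10, SE 0.49) and FOSL1 (1.25, SE 0.25), and the receptor EPHA2 (1.46, SE 0.35). DUSP6 was at 182.6 and 161.7 CPM in DMSO and between 259.0 and 305.5 CPM in treated cells, a narrow range next to that of DUSP5. The early factors FOS and MYC had 0.25 and 0.19 and overlapped with DMSO, and the lowest was ETV5 at 0.03 (adjusted p = 0.90). Among 16 surface and adhesion genes 7 rose, against 3.84% of all genes, and 0 fell. The median was 0.78, and it was 0.68, 0.74 and 1.03 under compounds 4, 5 and 6. Like the other lists, the ERK list and this one were chosen with earlier results of these data known. Their counts therefore only describe the genes listed, and EPHA2 is in both. JAG1, a Notch ligand, was at 183.2 and 155.9 CPM in DMSO and 430.6 to 1127 CPM in treated cells (log2-fold change 2.07, SE 0.33, adjusted p = 0.011). CDCP1, the kinase AXL and the neural adhesion molecule L1CAM changed by 2.63, 2.18 and 2.16, EMP1 was highest, and LAMB3 was lowest at −0.15 (adjusted p = 0.91).

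Inflammatory mediators had 4 of 11 tested genes higher, against 3.84% of all genes, and 0 lower, with a median of 0.75. The list held 20 genes. IL6, IL1A, IL1B, CXCL1, CCL2 and PTGS2 were listed at 0 in every library, and CXCL2, CXCL5 and TNF were not tested either. CSF1, a macrophage growth factor, was at 5.23 and 4.19 CPM in DMSO and 11.4 to 22.4 CPM in treated cells (log2-fold change 1.71, SE 0.26, adjusted p = 0.011). The chemokine CCL20 changed by 1.33 (SE 0.33), the adhesion receptor ICAM1 by 0.75 (SE 0.18) and the cytokine LIF by 0.65 (SE 0.15). The cytokine IL11 had 1 and 2 counts in DMSO and 0.09 to 10.8 CPM in treated cells, with compound 4 replicate 1 no higher than DMSO (log2-fold change 5.05, SE 1.64, adjusted p = 0.086). Its summed count relative to library size was 35.1 times higher in treated cells (95% interval 11.9 to 171, counting error only). NFKBIA, the feedback inhibitor of NF-κB, was lowest at −0.06 (adjusted p = 0.78).

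Of 38 DNA replication genes 13 fell and 0 rose, and of 36 mitosis genes 9 fell and 0 rose, against 2.19% of all genes that fell. The medians were −0.55 and −0.57, and all fitted values in both lists were below 0. GINS2, a subunit of the replicative helicase, was lowest, from 46.1 and 60.9 CPM to between 22.9 and 39.1 CPM (log2-fold change −0.91, SE 0.18, adjusted p = 0.019), and the licensing factor CDT1 was highest at −0.05 (adjusted p = 0.87). PCNA, the sliding clamp, changed by −0.72 (SE 0.16). In mitosis KIF20A, a kinesin of cell division, went from 59.4 and 73.1 CPM to between 24.7 and 49.8 CPM (log2-fold change −1.0, SE 0.21, adjusted p = 0.022), TOP2A and CCNB1 changed by −0.78 and −0.70, and BUB3 was highest at −0.11 (adjusted p = 0.58). The libraries differed here. Compound 5 replicate 2 had medians of −0.19 and −0.13 in the 2 lists, against −0.49 to −0.83 in the other 5 treated libraries, and in mitosis the DMSO libraries lay at −0.15 and 0.15. Of the called genes of both lists, 1 was called in all 3 fits without a compound. Of 20 p53 targets 2 rose, PLK3 (1.38, SE 0.27) and GADD45A (0.51, SE 0.12), and 2 fell, BTG2 (−0.84, SE 0.15) and SESN1 (−0.61, SE 0.14), where 3.84% and 2.19% of all genes did. Their median was 0.02, the same as over all genes tested. CDKN1A, the cell cycle inhibitor p21, had 0.13 (adjusted p = 0.61).

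Of 31 secreted liver proteins 6 fell, against 2.19% of all genes, and 0 rose, with a median of −0.19. They included APOC3, the plasma protein HP (−0.99, SE 0.22), and the apolipoproteins APOA4 (−0.88, SE 0.20) and APOA1 (−0.76, SE 0.17). AFP, α-fetoprotein, the other of the 2 called genes with the highest CPM in treated cells, was at 8663 and 8999 CPM in DMSO and 4598 to 6636 CPM in treated cells (log2-fold change −0.58, SE 0.13, adjusted p = 0.027). Albumin (ALB) had −0.27 (adjusted p = 0.21), and the highest member was KNG1, at 0.72 and 1.09 CPM in DMSO, 6.34 and 7.46 CPM under compound 5 and below 1 CPM under compounds 4 and 6 (adjusted p = 0.45). AFP and APOA1 are also the 2 called among the 10 markers of the line, whose median was −0.20 and whose highest was HNF4A at 0.01 (adjusted p = 0.98). Hepatocyte transcription factors had 0 of 15 called by edgeR, 3 at an unadjusted p under 0.05 and 1 by DESeq2, and ran from ONECUT1 at −0.67 (adjusted p = 0.22) to ONECUT2 at 0.35 (adjusted p = 0.14).

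Among 8 tested targets of the receptors PXR and CAR, 1 rose, where 3.84% of all genes did, and 2 had an unadjusted p under 0.05 with edgeR. The called gene was CYP2B6, which went from 10.2 and 6.45 CPM to between 15.4 and 29.8 CPM (log2-fold change 1.51, SE 0.28, adjusted p = 0.016). The list's median was 0.40, or 0.28, 0.39 and 0.01 under compounds 4, 5 and 6, and SULT2A1 was lowest at −0.01 (adjusted p = 0.99). AHR targets had a median of 0.52, with 0 of 5 called by edgeR, 1 at an unadjusted p under 0.05 and 1 by DESeq2. CYP1A1 was at 5.94 and 4.69 CPM in DMSO, 59.5 and 69.1 CPM under compound 4, 10.8 and 9.05 CPM under compound 5 and 15.5 and 23.2 CPM under compound 6 (log2-fold change 2.55, SE 0.84, adjusted p = 0.089). All 6 treated values lay above DMSO, and the compounds did not overlap with each other. Of 13 genes of metal binding and iron, 3 rose, against 3.84% of all genes, and the median was 0.86. They were MT2A (2.12, SE 0.38), MT1E (1.86, SE 0.45) and HAMP, which encodes the iron hormone hepcidin (1.76, SE 0.43). HAMP was at 30.3 and 8.79 CPM in DMSO, and its log2-fold change was 2.88 without DMSO replicate 1 and 1.11 without DMSO replicate 2. The iron importer SLC39A14 was lowest at −0.08 (adjusted p = 0.76). The list's median was 1.06 and 0.81 under compounds 4 and 5 and 0.14 under compound 6, and metallothioneins share sequence, so reads can be split among them.

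Hypoxia and glycolysis genes had 2 of 24 higher and 1 lower, where 3.84% and 2.19% of all genes were, with a median of −0.10. The glucose transporter SLC2A1 rose from 1465 and 1331 CPM to between 1774 and 2718 CPM (log2-fold change 0.68, SE 0.15, adjusted p = 0.029) and PFKP, a phosphofructokinase, by 1.46 (SE 0.37, adjusted p = 0.040, or 0.054 with the replicate number as a block), while PFKFB4 fell (−0.74, SE 0.17, adjusted p = 0.031). HK1 was highest at 2.22 (adjusted p = 0.069), with 15 and 2 counts in DMSO and a ratio of summed counts of 4.74 (95% interval 2.91 to 8.26, counting error only). Circadian clock genes had 0 of 16 called by edgeR, where 3.84% of all genes rose and 2.19% fell. At an unadjusted p under 0.05 there were 7, against 3229 of all 13400 genes, and DESeq2 called 1, against 1434. The list ran from BMAL1 at −0.46 (adjusted p = 0.40) to NR1D1 at 1.44 (adjusted p = 0.069). Of 13 mitochondrially encoded genes 0 were called by edgeR, 1 at an unadjusted p under 0.05 and 0 by DESeq2. All 13 fitted values were below 0, with a median of −0.26 between MT-ND6 at −0.53 (adjusted p = 0.46) and MT-CYB at −0.12 (adjusted p = 0.73). The list's median was −0.33, −0.57 and 0.04 under compounds 4, 5 and 6, and the DMSO libraries themselves lay at 0.21 and −0.21.

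Fits under other settings called between 0 and 1497 genes. Fits that changed the model, the test or the scaling without removing libraries called between 754 and 1461, and removing a DMSO library, or a whole replicate number, left 0 to 4.

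**Figure D2:**
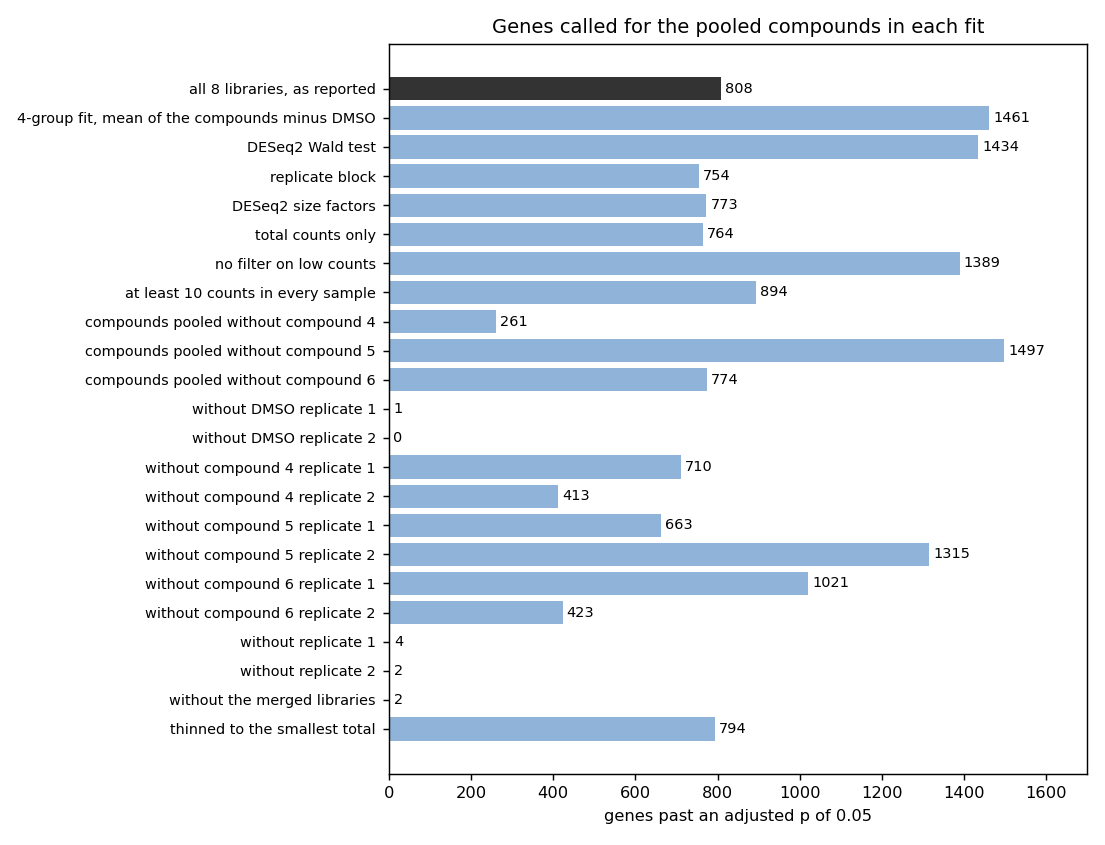
Number of genes with an adjusted p under 0.05 (x axis) for the pooled compounds in each fit (y axis), with the fit of all 8 libraries in black at 808. The bars nearly vanish in the 5 fits that leave DMSO with 1 library.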

How the data were processed

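Estimated counts from 8 libraries were analysed. The authors checked reads with FastQC 0.12.0, quantified them with Salmon 1.5.0 on GRCh38, and deposited the estimated counts per gene as whole numbers without normalization, which were used as deposited. Offsets for transcript length were not applied. Libraries were directional, but the strand setting of the counting is not given in the sources used here, so counts of overlapping genes are uncertain. Gene positions come from GENCODE 29 (GRCh38).

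In R 4.3.3, edgeR 4.0.16 was used with TMM factors, a filter on low counts (filterByExpr, minimum count 10) and the quasi-likelihood test of 6 treated against 2 DMSO samples. This 2-group fit counts differences between compounds as spread (coefficient of variation 0.148, or 0.122 with 4 groups). It treats the 6 treated libraries as independent, although each compound gave 2 of them, so its SEs can be too small. P-values were adjusted by Benjamini-Hochberg over 13400 genes at a threshold of 0.05. The script was tested on simulated data. Log2 CPM used a prior count of 2. The authors used DESeq2 1.38.3 for their own comparisons, and DESeq2 1.42.0 was an alternative here, with other scalings, filters, a replicate block, thinning, and leaving out libraries or compounds. Intervals cover counting error only, and depth was 9791659 to 17814595 counts per library.

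Named genes were those called with all 6 treated libraries beyond both DMSO libraries and a mean of at least 5 CPM, the 12 rises and 12 falls with the largest weakest-compound difference, together with the ends and exceptions of 25 gene lists, CYP2C19 and the 2 called genes of highest treated CPM. Some of the genes that the rule takes are not reported here. A few other members of the lists were named after their values were seen. The comparison, the lists and the rule were chosen with earlier results of these data known. The pairing comes from the day in the labels, and over the 6 pairs of groups the same-numbered deviations correlated, across genes, between −0.15 and 0.24. Replicates differed by more than counting noise, with a mean chi-square per gene of 8.20 to 19.1.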

Additional observations from a re-analysis of the deposited data

Results flagged for a closer look

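Dixon's test was run on the 6 treated values, in log2 CPM, of 85 named genes, and chance alone flags about 1 in 20 groups. It marked 1 of them. CRELD2, a chaperone of the endoplasmic reticulum, was at 45.5 CPM in compound 5 replicate 2 and at 23.1 to 29.4 CPM in the other 5 treated libraries, and in log2 CPM its gap to the next library was 0.641 of the whole range, above Dixon's critical value. In DMSO it was at 35.9 and 48.0 CPM.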

How the results depend on the processing

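The full fit called 808 genes. The count rose to 1461 in the 4-group fit that averages the compounds, which shared 804 of the 808, to 1434 with DESeq2, which shared 799, to 1389 without a filter on low counts, and to 1497 without compound 5. It dropped to 261 without compound 4 and to 2 without the merged libraries. Leaving out single libraries or replicate numbers gave 0 to 1315. With the replicate block 754 genes were called, of which 682 were among the 808, and of the 54 genes called among those the naming rule takes, 4 lost the call, CALR, ATG2A and PFKP among them, and 50 kept it. DESeq2's size factors gave 773, total counts 764, at least 10 counts in every sample 894, and thinning 794. No direction was reversed in the 22 alternatives among the named genes called. Of 550 list medians under the alternatives, 542 moved by less than the spread and 8 by more, but of 550 counts of called list members 199 moved by over 1.5 times and 351 did not. With 2 DMSO libraries, the loss of 1 leaves a control without replicates. Every fit assumes 1 spread per gene for all groups, and that spread then comes from the treated libraries alone. Low-count rises such as DUSP5, C5AR1, EMP1, MYEOV, TNS4, IL11 and HK1 are limited by depth in DMSO.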
